A study of Rattus norvegicus with 8 samples.

Results

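MPP+ and 3-NPA are both mitochondrial poisons, and the comparison described here sets the 2 arrays of MPP+-treated N27 cells against the 2 arrays of 3-NPA-treated N27 cells, 4 of the 8 arrays of the study. N27 is an immortalised line derived from embryonic rat mesencephalon that is used as a model of dopaminergic neurons, so every group is 1 transformed line and not neurons of an animal. Total RNA was labelled with Cy3 and hybridised to single-colour Agilent rat arrays. The other 4 arrays, 2 of untreated control cells and 2 of cells given Mn, enter through the shared estimate of spread, and the control values are given beside those of the treated cells. MPP+ was given at 250 µM for 48 h, while neither the concentration nor the duration of the 3-NPA exposure, nor its solvent, is stated in the labels. The exposures may therefore differ in strength and length as well as in the agent. Nothing in the labels says whether the 2 arrays of a group came from separate cultures, so p-values measure the spread between these arrays, which may be technical.

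MPP+ is the active metabolite of the neurotoxin MPTP. It is carried into dopaminergic neurons by the plasma membrane dopamine transporter, accumulates in mitochondria and blocks electron transfer at complex I, the NADH dehydrogenase. 3-NPA, 3-nitropropionic acid, is a toxin of plants and fungi that resembles succinate and irreversibly inactivates succinate dehydrogenase, the enzyme that is both complex II and a step of the citric acid cycle. It is best known for lesions of the striatum. Both toxins limit oxidative phosphorylation, and mitochondrial stress of this kind is known to raise the mRNAs controlled by the transcription factor ATF4.

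A level is the log2 signal of a gene's probe relative to the 75th percentile of its array, so 0 is that percentile and negative levels are below it. Levels of different genes come from different probes and are not set against each other. A difference is the MPP+ mean minus the 3-NPA mean on the log2 scale, given with its standard error (SE), and is positive where MPP+ cells had more. A gene was called where limma's adjusted p was below 0.05. The 16877 genes tested had a probe well above background on both MPP+ or both 3-NPA arrays, 15772 of them on all 4 arrays. The 75th percentile intensity was 1279 and 1188 for MPP+ against 1078 and 1162 for 3-NPA, and no spot was saturated. Across genes the 2 MPP+ arrays correlated at 0.997 and the 2 3-NPA arrays at 0.994, and MPP+ against 3-NPA arrays at 0.978 to 0.979. The 3-NPA arrays were read out in extraction run 2 and the other 6 arrays in run 1, and each group had its own pair of positions on the slide, so run, position and treatment cannot be told apart. In N27 cells the gene for tyrosine hydroxylase, Th, was above background on all 4 arrays, but the dopamine transporter gene Slc6a3 was not well above background on both arrays of either group. Of 15 neuronal markers on the array, 5 were above background on both 3-NPA arrays, and Syp, Snap25, Nefl, Nefm, Stmn2 and Gap43 were not on any of the 8.

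Of the 16877 genes, 5244 (31.1%) were called, 2184 of them higher in MPP+ (12.9% of those tested) and 3060 higher in 3-NPA (18.1%). These shares are the background against which the gene lists below are read. The larger differences lay mostly on one side. At 2-fold or more 1488 genes (8.82%) were called, of which 263 genes (1.56%) were higher in MPP+ and 1225 (7.26%) higher in 3-NPA, at 4-fold or more 21 and 382, and at 8-fold or more 5 and 113. Genes below background in 1 group were kept only through the group where they were high. Of all calls, 48 higher in MPP+ and 277 higher in 3-NPA were below background on both arrays of the other group. Among genes above background on all 4 arrays, 2126 were called higher in MPP+ and 2673 higher in 3-NPA. The fold counts were not split in this way. The arrays of the groups did not overlap for 76.6% of genes. Against the control arrays, which both contrasts share, MPP+ cells had 7.49% of genes called higher and 6.43% lower, and 3-NPA cells 22.3% higher and 16% lower. The split depended on how the arrays were scaled: 41.6% of the calls were higher in MPP+ with the 75th percentile and 72.2% with the array median, which moved the median difference of all genes from -0.03 to 0.23. With the median taken over probes that were above background on all 8 arrays the share was 41.8%. Under the median scaling the lists leaning to MPP+ gained calls, complex I going from 11 to 26 and the proteasome from 14 to 27. Leaving out 1 of the 4 arrays in turn left between 2259 and 2435 calls.

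**Figure D1:**
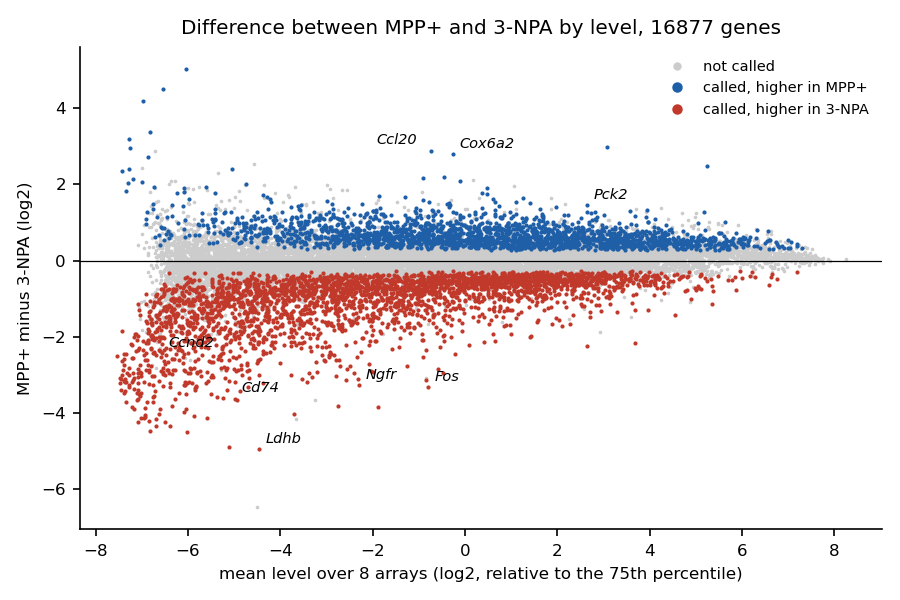
Difference between MPP+ and 3-NPA (log2, vertical axis) against the mean level over the 8 arrays (log2 relative to the 75th percentile, horizontal axis). Each point is a gene, blue where called higher in MPP+, red where called higher in 3-NPA and grey where not called. Labels name a few genes of the text. Beyond a difference of 2 (4-fold) lie 382 red points and 21 blue ones, and many of the red ones are at low levels.

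The direction of the calls changed with the level of the gene. Among genes above background on all 4 arrays, 3.91% of those with a mean level below -4 were higher in MPP+ and 18.6% higher in 3-NPA. Among genes with a mean level above 2 the order was reversed, with 16.9% higher in MPP+ and 9.35% higher in 3-NPA. Between 0 and 2 the shares were 18.1% and 17.4%. The lean towards 3-NPA among weakly expressed genes moves with several results below, and its part in them was not tested.

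**Figure D2:**
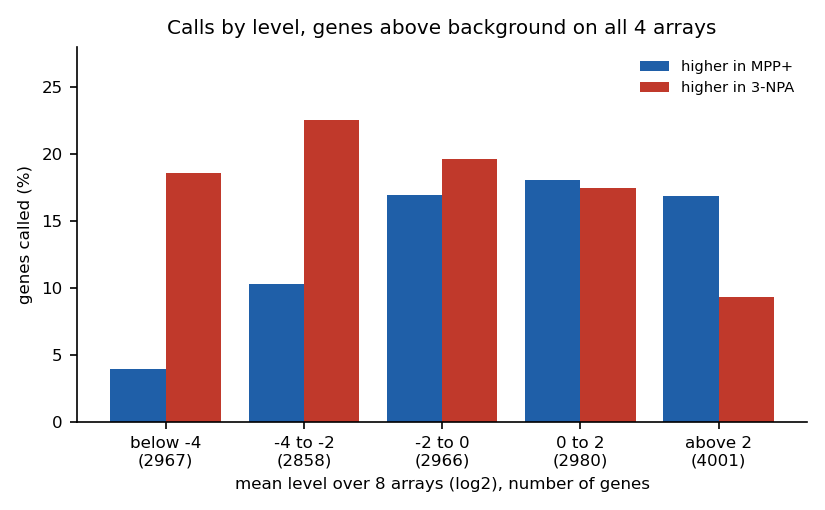
Percent of genes called higher in MPP+ (blue) and higher in 3-NPA (red) in 5 bins of mean level over the 8 arrays (log2), for genes above background on all 4 arrays, with the number of genes under each bin. The red share falls from 18.6% in the lowest bin to 9.35% in the highest, and the blue share rises from 3.91% to 16.9%.

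Among the genes with the largest excess in MPP+, Cox6a2 encodes the heart and skeletal muscle isoform of a cytochrome c oxidase subunit. Its probe lies at chr1:187464580-187464639 of rn4. Its levels were -3.19 and -3.34 on the control arrays, 2.99 and 3.02 with MPP+, and 0.18 and 0.23 with 3-NPA. Both toxins thus had it above both control arrays, and MPP+ above 3-NPA, by 2.80 ± 0.16 or 6.95-fold (limma, adjusted p = 0.000266). Against control the differences were 6.27 with MPP+ and 3.47 with 3-NPA.

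Ccl20, which encodes a chemokine that draws CCR6-bearing lymphocytes, stood apart for the opposite reason. Its levels were 0.07 and 0.49 in control, -0.18 and -0.29 with MPP+ and -3.05 and -3.19 with 3-NPA. MPP+ cells overlapped neither group but lay near control, and 3-NPA cells lay far below both. The difference was 2.89 ± 0.16, and a second probe gave 3.11. Tecpr1, whose product helps autophagosomes to mature, had levels of 4.84 and 4.77 with MPP+ and 2.01 and 1.65 with 3-NPA against 3.27 and 3.64 in control. MPP+ cells were above control and 3-NPA cells below it, a difference of 2.97 ± 0.19.

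Of the other genes in the leading group for MPP+, the histone genes Hist1h2an (2.19), Hist1h2ai (2.10) and Hist1h2bd (1.76) belong to families of near-identical copies, so which copy was measured is uncertain. Shbg, which encodes the plasma carrier of sex steroids, differed by 2.49, with 6.53 and 6.47 after MPP+ against 3.80 and 4.22 after 3-NPA. Wdr18 (1.70) gave 1.34 under another background correction. Cyren (2.41), a regulator of DNA end joining, Faslg (2.01), the ligand of the FAS death receptor, Zfp7 (1.71) and Mad2l2 (1.68) were weakly expressed and gave 0.94, 0.69, 0.65 and 0.78 with that correction, named normexp. The call of Mad2l2 was lost whichever of the 4 arrays was left out, with adjusted p up to 0.151.

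Genes that were below background on both 3-NPA arrays have only a bound. Here and below, "at least" holds only under the main background subtraction, and differences under normexp can be smaller than the bound. Tvp23a was at least 15.3-fold higher in MPP+ by the mean, but its MPP+ arrays read -4.14 and -1.08 and so disagreed, and its call was lost with normexp and without the second MPP+ or the second 3-NPA array. Ntn3, which encodes a netrin, a guidance cue for growing axons, was at least 3.07-fold higher, Tenm4 at least 2.80-fold, Tsx at least 2.68-fold and Timm44, part of the motor that pulls proteins into mitochondria, at least 2.43-fold. With normexp the differences of these last genes were 0.37, 0.38, 0.28 and 0.28 on the log2 scale, and Tenm4 and Timm44 lost their calls. Tenm4 also lost it without either MPP+ array and Timm44 without the first.

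On the 3-NPA side the named genes above background on all 4 arrays were led by Ldhb, which encodes the lactate dehydrogenase subunit that favours turning lactate back into pyruvate. Its probe spans chr4:180061921-180063949 of rn4 on the minus strand. The probe is shown because this gene has the largest of those differences.
Ldhb probe: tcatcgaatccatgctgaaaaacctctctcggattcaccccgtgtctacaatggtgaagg

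Ldhb read -5.97 and -6.26 in control, -5.54 and -5.54 with MPP+, and -0.65 and -0.54 with 3-NPA. MPP+ cells lay a little above control and 3-NPA cells far above both. The probe was not well above background on either control array, so the control level is uncertain. The difference was -4.95 ± 0.13, 30.8-fold (adjusted p = 9.12e-05), and -3.31 with normexp. Ldha, which encodes the partner subunit that favours making lactate, had levels of 6.42 and 6.21 with MPP+ and 6.04 and 6.03 with 3-NPA, a difference of 0.28 ± 0.17 that was not called (adjusted p = 0.253).

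Ngfr, the gene of the low-affinity neurotrophin receptor p75, read -3.25 and -3.24 in control, -2.86 and -2.84 with MPP+ and 0.41 and 0.40 with 3-NPA, a difference of -3.26 ± 0.09. Rgs2, which encodes a brake on G protein signalling, read -3.99 and -4.95 in control, -5.27 and -4.99 with MPP+ and -1.07 and -1.16 with 3-NPA, a difference of -4.02 ± 0.31 that a second probe gave as -4.25. Cd7, an immunoglobulin-family surface protein gene known from T cells, read -2.73 and -2.49 in control, -2.96 and -3.05 with MPP+ and 0.85 and 0.85 with 3-NPA, a difference of -3.85 ± 0.11. In Ngfr, Rgs2 and Cd7 the 3-NPA arrays lay above both the MPP+ and the control arrays. The MPP+ arrays lay a little above control in Ngfr and below it in Rgs2 and Cd7, but in Rgs2 and Cd7 this gap was not called. Rgs2 was not well above background on either control array, and its difference between the toxins was -2.73 with normexp.

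Plppr3, a gene of neuronal membrane phosphatase-related proteins, differed by -3.82 ± 0.14 and Mmp17, a membrane-anchored matrix metalloproteinase, by -3.19 ± 0.14. Mro, Crym, a thyroid hormone-binding protein gene, Itga8, an integrin subunit gene, and Tnp1, a sperm nuclear protein gene, had differences of -3.60, -3.32, -3.20 and -3.21. With normexp these fell to -2.24, -1.54, -1.81 and -1.87. Among genes below background on both MPP+ arrays, Rprml was at least 21.4-fold higher in 3-NPA, Gsta1 at least 17.0-fold, Crybb2, a lens crystallin gene, at least 11.7-fold, the collagen VI gene Col6a1 at least 8.67-fold and the homeobox gene Dmbx1 at least 8.59-fold. The probe of Gsta1 carries the name of another glutathione transferase in the array design, and the reads of this family are uncertain between its copies. A second probe of Rprml was not called. With normexp the log2 differences of these genes ran from -2.13 (Rprml) to -1.25 (Dmbx1).

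**Figure D3:**
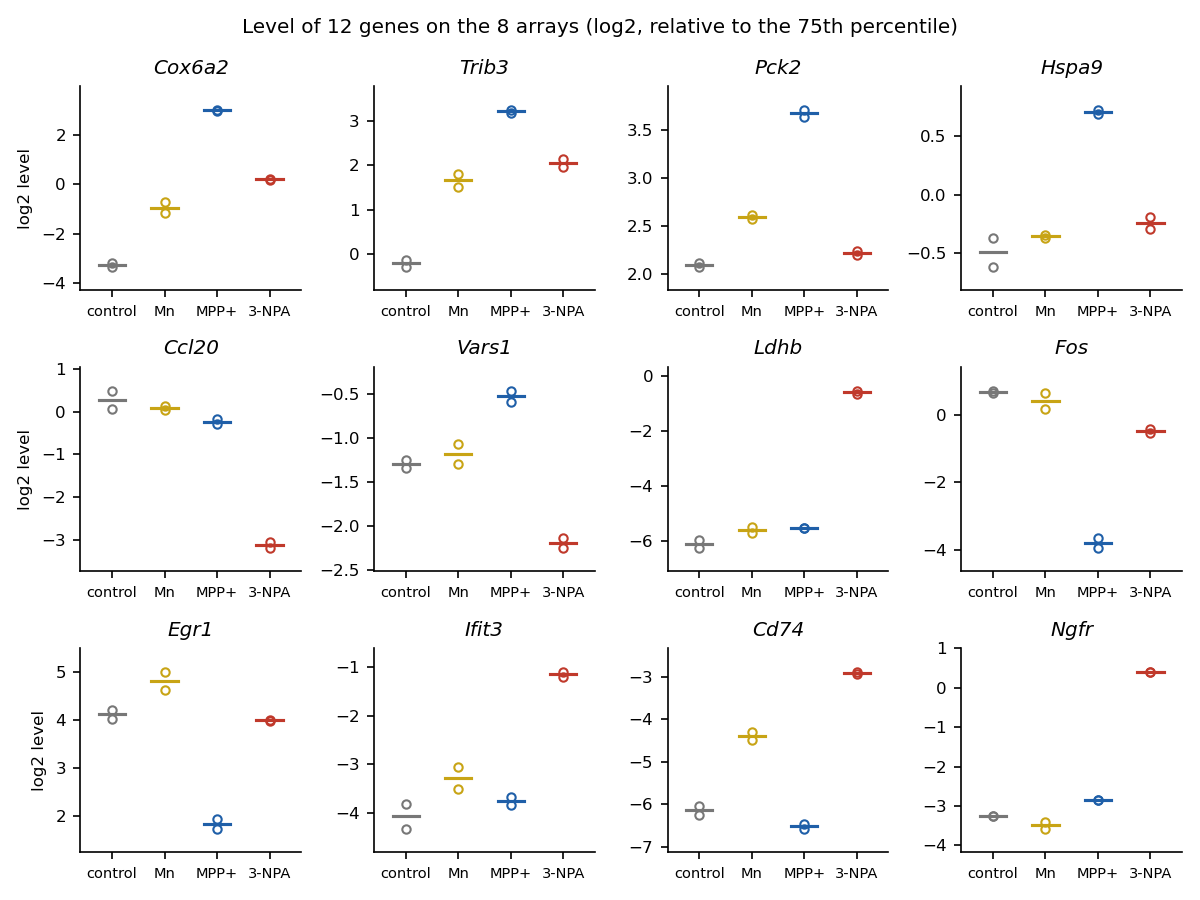
Level (log2 relative to the array's 75th percentile) of 12 genes on each of the 8 arrays. Circles are arrays and bars are group means of 2 arrays. Cox6a2, Trib3, Pck2 and Hspa9 are highest with MPP+, while Ldhb, Ifit3, Cd74 and Ngfr are highest with 3-NPA and Fos and Egr1 are lowest with MPP+.

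The gene lists below were read across the whole fit. A list's count of called members is set beside the shares for all genes, 12.9% higher in MPP+ and 18.1% higher in 3-NPA. A list's median is set beside that of all genes, -0.03. Counts against control have other shares over all genes. These were 7.49% higher and 6.43% lower with MPP+, and 22.3% higher and 16% lower with 3-NPA. Members outside the naming rule that appear where a count is 5 or fewer, or as an exception, were named after their values were seen: Gdf15, Slc6a2, Blvrb, Uqcrh, Mrps27, P4ha1, Hk2, B2m, Psmb9, Mdm2, Bbc3, Pfkm, Gpi, Edem1, Pdia3 and Creld2. The promoters printed were likewise picked for their matches.

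**Figure D4:**
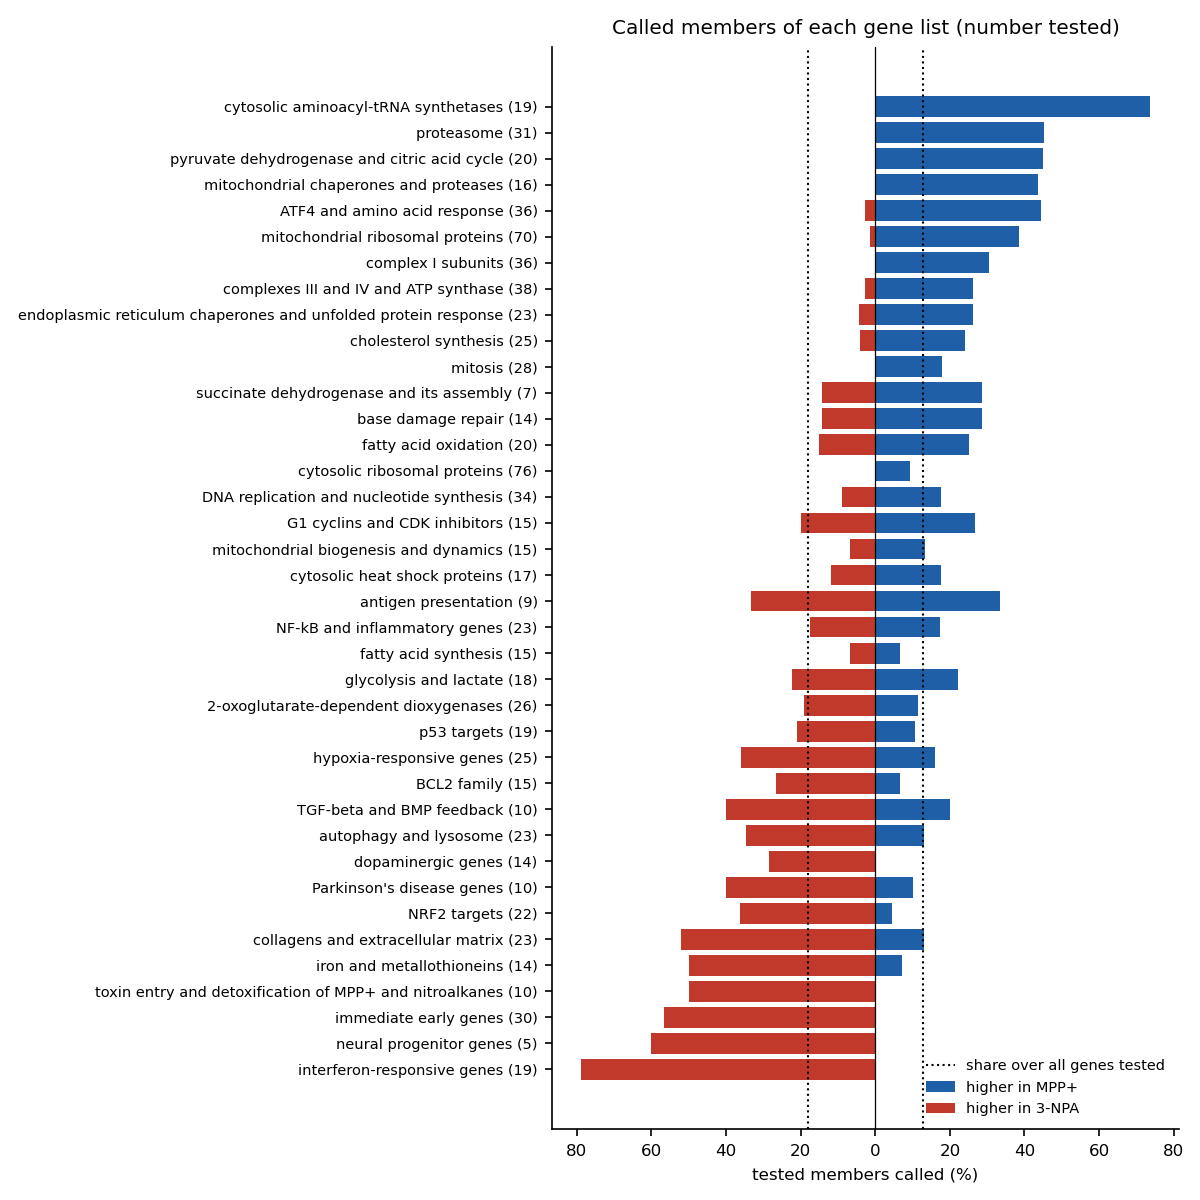
Percent of the tested members of 38 gene lists called higher in MPP+ (blue, to the right) and higher in 3-NPA (red, to the left), with the number tested in brackets. Dotted lines mark the shares over all genes, 12.9% and 18.1%. The aminoacyl-tRNA synthetases have the longest blue bar and the interferon-responsive genes the longest red bar.

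ATF4 is a transcription factor whose translation rises when the integrated stress response phosphorylates the initiation factor eIF2α, and it switches on amino acid synthesis, amino acid transport and stress genes. Of 36 tested members of the ATF4 list, 16 were called higher in MPP+, 1 was called higher in 3-NPA and 19 were not called. The list's median difference was 0.39. Against control, the list's median was 1.36 with MPP+ and 0.86 with 3-NPA, and 32 and 27 members were called higher (the contrasts share the control arrays). The called member on the other side was Gdf15, a stress cytokine gene, at -0.87.

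Several of the named members encode metabolic enzymes. Pck2, the mitochondrial phosphoenolpyruvate carboxykinase gene, read 2.12 and 2.08 in control, 3.71 and 3.64 with MPP+ and 2.20 and 2.24 with 3-NPA. Its MPP+ arrays lay above all others and its 3-NPA arrays just above control, a difference of 1.45 ± 0.08 (adjusted p = 0.000266). Shmt2, the mitochondrial serine hydroxymethyltransferase gene, read 2.53 and 2.68 in control, 3.53 and 3.48 with MPP+ and 2.44 and 2.41 with 3-NPA. Its MPP+ arrays also lay above all others, but its 3-NPA arrays lay just below control, a difference of 1.08 ± 0.10 between the toxins. Psph, which makes serine, differed by 0.87 ± 0.10.

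Trib3, a pseudokinase gene, read -0.29 and -0.13 in control, 3.26 and 3.18 with MPP+ and 2.14 and 1.95 with 3-NPA, a difference of 1.17 ± 0.13. Ddit3, which encodes the transcription factor CHOP, differed by 0.73 ± 0.11, with rises above control of 2.47 and 1.74. Asns, asparagine synthetase, differed by 0.73 ± 0.09, with rises of 1.96 and 1.23. Atf4 itself differed by 0.34 ± 0.10 (adjusted p = 0.0428), a call lost whichever of the 4 arrays was left out and with quantile normalization.

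Slc7a11, the gene of the cystine and glutamate exchanger, was among the 19 members not called. It read -2.78 and -2.97 in control, 1.18 and 1.16 with MPP+ and 0.94 and 1.05 with 3-NPA. Both toxins had it far above control, by 4.04 and 3.87, while the difference between them was 0.17 ± 0.10 and not called (adjusted p = 0.253). Leaving out each of the 4 arrays in turn, the number of members called higher in MPP+ was 8 each time. These need not be the same members.

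The cytosolic aminoacyl-tRNA synthetases join each amino acid to its tRNA, and several are known ATF4 targets. All 19 tested had a positive difference, 14 were called higher in MPP+, none higher in 3-NPA, and the median was 0.55. Their median against control was 0.72 with MPP+ and 0.08 with 3-NPA, and with 3-NPA 3 were called above and 7 below control. Vars1, for valine, read -1.26 and -1.35 in control, -0.60 and -0.46 with MPP+ and -2.14 and -2.25 with 3-NPA. The groups did not overlap, with MPP+ above control and 3-NPA below it, and the difference was 1.66 ± 0.12. Farsb (0.95 ± 0.08) and Eprs1 (0.88 ± 0.10) were called too. Farsa differed by 0.69 ± 0.08, with MPP+ arrays at 4.53 and 4.60 beside control at 4.61 and 4.60, so here the gap came from lower 3-NPA arrays at 3.84 and 3.90. Leaving out 1 of the 4 arrays left 5 or 6 members called.

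The promoters of these genes were searched for the composite site known to bind ATF4 with C/EBP proteins, taken as TGATGNAA on either strand, in the 250 bases before and 50 after each gene's start (RefSeq, GRCr8). A match was found for 9 of 34 promoters of the ATF4 list (26.5%) and 7 of 17 of the synthetases (41.2%), beside 3.98% of all 33469 promoters. The promoter of Pycr1, a proline synthesis gene, is shown as a member of the list with a match, which is in capitals and starts 131 bases before the gene's start (chr10:106420763-106421062 of GRCr8, minus strand).
Pycr1: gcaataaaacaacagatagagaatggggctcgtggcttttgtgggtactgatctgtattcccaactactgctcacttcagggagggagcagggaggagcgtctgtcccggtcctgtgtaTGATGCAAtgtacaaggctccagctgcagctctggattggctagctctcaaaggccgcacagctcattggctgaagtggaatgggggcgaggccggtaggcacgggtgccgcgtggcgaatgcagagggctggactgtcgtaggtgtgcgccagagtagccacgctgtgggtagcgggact

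A match is a run of letters and not a measured binding site. Each list counts 1 promoter per gene, while the share over all promoters can count several for a gene. The motif counts here and below cover all listed genes with a promoter, whether or not they were tested or called. They do not bear on the contrast between the toxins. Pck2 and Trib3, described above, also had 1 match each.

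Mitochondria have their own chaperones and proteases for protein quality control. Of 16 tested, 7 were called higher in MPP+, none higher in 3-NPA and 9 not called, with a median of 0.29. Lonp1, the protease that degrades damaged matrix proteins, read 3.77 and 3.56 in control, 4.86 and 4.98 with MPP+ and 3.50 and 3.66 with 3-NPA, so the MPP+ arrays stood alone, by 1.34 ± 0.16. Hspa9, the matrix HSP70 chaperone, read 0.73 and 0.69 with MPP+ and -0.19 and -0.29 with 3-NPA, against -0.37 and -0.62 in control, a difference of 0.95 ± 0.11. Htra2, a protease of the intermembrane space, differed by 1.05 ± 0.10 and Grpel1, the exchange factor of the matrix HSP70, by 0.67 ± 0.10. For Grpel1 the MPP+ arrays lay within the control range and the 3-NPA arrays below it. From 4 to 5 members were called without 1 of the 4 arrays.

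Chaperones of other compartments were read in the same way. Of 23 tested genes of the endoplasmic reticulum and its unfolded protein response, 6 were called higher in MPP+ (Xbp1, Hspa5, Pdia3, Edem1, Sdf2l1 and Creld2) and 1, the co-chaperone gene Dnajb9, higher in 3-NPA, with a median of 0.28. Hspa5, the BiP chaperone, read 5.10 and 5.02 in control, 4.83 and 5.06 with MPP+ and 4.15 and 4.33 with 3-NPA, a difference of 0.71 ± 0.11. The 3-NPA arrays were the low ones. Without 1 of the 4 arrays, 0 or 1 of these 23 was called higher in MPP+, and Dnajb9 lost its call without 2 of them in turn. Of 17 cytosolic heat shock genes, 3 were called higher in MPP+ and 2 higher in 3-NPA. The latter were Bag3 (-0.57 ± 0.11) and Hspa1b (-1.21 ± 0.12), the stress-inducible HSP70, whose twin gene may share its probe. The call of Bag3 was lost whichever of the 4 arrays was left out.

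The targets of both inhibitors are protein complexes built from many nuclear genes. Of 36 tested complex I genes, whose product MPP+ blocks, 33 had a positive difference, 11 were called higher in MPP+ and none higher in 3-NPA, and the median was 0.23. Their median was -0.03 against control with MPP+ and -0.27 with 3-NPA, where 13 members were called lower. Ndufv1, the NADH-binding subunit, read 4.34 and 4.50 in control, 4.48 and 4.56 with MPP+ and 3.999 and 3.998 with 3-NPA, a difference of 0.52 ± 0.10. MPP+ arrays overlapped control and 3-NPA arrays lay below. Ndufs8 (0.60), Ndufa10 (0.49) and Ndufs7 (0.42) were also called. These differences are small: without 1 of the 4 arrays 0 or 1 complex I gene was called, none of these 4 named ones among them, and with quantile normalization the median was 0.09.

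Succinate dehydrogenase, which 3-NPA inactivates, has 4 subunits. The flavoprotein gene Sdha read 3.01 and 3.13 with MPP+ and 3.04 and 3.07 with 3-NPA, overlapping, with a difference of 0.02 ± 0.09 (adjusted p = 0.894). The membrane anchors Sdhc (0.23 ± 0.17) and Sdhd (-0.07 ± 0.09) were not called either. Sdhb, the iron-sulfur subunit, read 4.06 and 3.96 with MPP+ and 3.54 and 3.47 with 3-NPA against 3.89 and 3.94 in control, and was called at 0.51 ± 0.09. Of the assembly factors, Sdhaf1 was higher in MPP+ (0.52 ± 0.09) and Sdhaf3 higher in 3-NPA (-0.48 ± 0.12). The calls of Sdhb, Sdhaf1 and Sdhaf3 were each lost whichever of the 4 arrays was left out, with adjusted p up to 0.0769 for Sdhb.

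Among 38 genes of complexes III and IV and ATP synthase, 10 were called higher in MPP+, with Cox6a2 far beyond the rest, and 1, Uqcrh (-0.43), higher in 3-NPA. Uqcrc1, a core subunit of complex III, differed by 0.69 ± 0.10, with 3.42 and 3.44 against 2.73 and 2.77. Atp5f1b, the catalytic β subunit of ATP synthase, differed by 0.78 ± 0.14. The list's median of 0.20 came to 0.02 with quantile normalization, and 2 to 5 members were called without 1 of the 4 arrays. Atp5f1b lost its call without 2 of them in turn.

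Genes of pyruvate dehydrogenase and the citric acid cycle leaned to MPP+ throughout. Of 20 tested, 19 had a positive difference, 9 were called higher in MPP+ and none higher in 3-NPA, with a median of 0.33. Sucla2, a subunit of the succinyl-CoA synthetase that makes succinate, read 2.32 and 2.34 in control, 2.20 and 2.21 with MPP+ and 1.12 and 1.27 with 3-NPA, a difference of 1.01 ± 0.09. Pdhb (0.82 ± 0.11), Dld (0.73 ± 0.10) and Dlat (0.66 ± 0.11), components of the pyruvate dehydrogenase complex, were called as well. Against control, no member of this list was called in either direction with MPP+, while 7 were called lower with 3-NPA. From 3 to 5 members were called in the comparison without 1 of the 4 arrays, and Dlat lost its call without 1 of them.

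The machinery of mitochondrial translation showed the same lean. Of 70 tested mitochondrial ribosomal protein genes, 27 were called higher in MPP+ and 1, Mrps27 (-0.38), higher in 3-NPA, with a median of 0.30. Mrpl49 read -0.83 and -0.57 in control, -0.64 and -0.75 with MPP+ and -1.89 and -1.90 with 3-NPA, a difference of 1.20 ± 0.12. Mrps22 (0.99 ± 0.09) and Mrps7 (0.87 ± 0.09) also had MPP+ arrays close to control and 3-NPA arrays below it. Against control, 26 of the 70 were called lower with 3-NPA and 6 with MPP+, beside 16% and 6.43% of all genes. The number called higher in MPP+ was 5 to 9 without 1 of the 4 arrays. Of 76 cytosolic ribosomal protein genes, whose many pseudogenes make single probes uncertain, 7 were called higher in MPP+ (median 0.13) and none higher in 3-NPA. This count was 0 to 2 with 1 of the 4 arrays left out and 20 with scaling by the median.

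Of the proteins that shape mitochondria, the fission GTPase gene Dnm1l was higher in MPP+ by 0.91 ± 0.11, at -0.67 and -0.69 against -1.62 and -1.57 with 3-NPA and -0.81 and -0.56 in control. Its receptor gene Mff was higher by 0.51 ± 0.11, and Pink1, the kinase that marks damaged mitochondria for removal, was higher in 3-NPA by -0.49 ± 0.09. The fusion gene Opa1 was not called (0.31 ± 0.12, adjusted p = 0.103). The calls of Mff and Pink1 were lost whichever of the 4 arrays was left out, and that of Pink1 also with scaling by the median.

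The proteasome degrades ubiquitin-tagged proteins. All 31 tested subunit genes had a positive difference, 14 were called higher in MPP+ and none higher in 3-NPA, and the median was 0.37. Against control the median was -0.10 with MPP+ and -0.50 with 3-NPA, where 21 were called lower. Psmd14, the deubiquitinase of the lid, read 0.74 and 0.87 in control, 0.61 and 0.63 with MPP+ and -0.47 and -0.57 with 3-NPA, a difference of 1.13 ± 0.09. Psmb6 (0.78 ± 0.10), Psmb1 (0.71 ± 0.11) and Psmc3 (0.67 ± 0.09) had 3-NPA arrays below the others in the same way. The count was 4 to 7 without 1 of the 4 arrays, and the median 0.19 with quantile normalization.

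**Figure D5:**
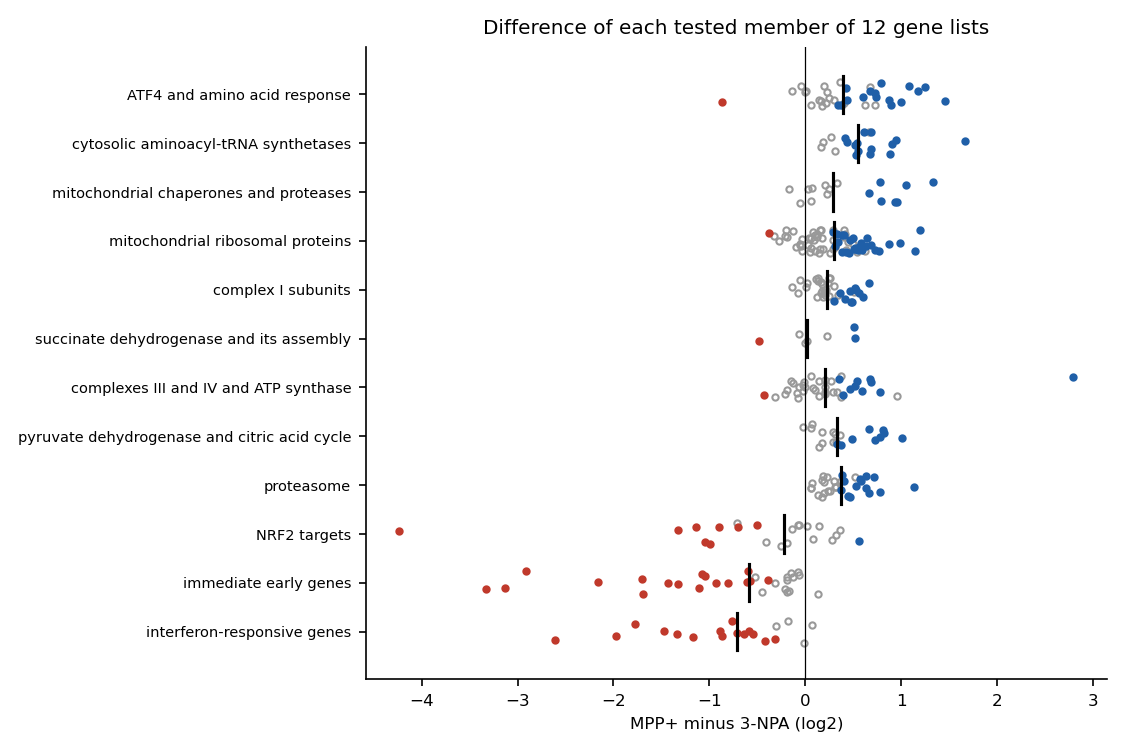
Difference of each tested member (MPP+ minus 3-NPA, log2) in 12 gene lists. Filled blue points are called higher in MPP+, filled red points called higher in 3-NPA, open grey points not called, and the black bar is the list's median. All 31 proteasome genes lie right of 0, and 18 of 19 interferon-responsive genes lie left of it.

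Immediate early genes are transcribed within minutes of growth factor, calcium or stress signals, many of them through serum response factor. Of 30 tested, 29 had a negative difference, 17 were called higher in 3-NPA and none higher in MPP+, and the median was -0.58. Fos read 0.71 and 0.65 in control, -3.66 and -3.95 with MPP+ and -0.55 and -0.41 with 3-NPA. It was below control with both toxins and lowest with MPP+, a difference of -3.33 ± 0.19, 10.0-fold (adjusted p = 0.000252). Egr1, a zinc finger transcription factor gene, read 4.20 and 4.02 in control, 1.93 and 1.72 with MPP+ and 3.99 and 3.98 with 3-NPA. Here the 3-NPA arrays lay just below control and the MPP+ arrays far below, a difference of -2.16 ± 0.16 that a second probe gave as -2.45.

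Egr2, of the same family, read -0.39 and -0.55 in control, -3.22 and -3.28 with MPP+ and -0.18 and -0.05 with 3-NPA, a difference of -3.13 ± 0.19. Arc, which encodes a cytoskeletal regulator of synapses, differed by -2.92 ± 0.15. Its 3-NPA arrays, at -0.50 and -0.40, were above control at -2.55 and -2.21, and its MPP+ arrays, at -3.48 and -3.25, below it. The orphan nuclear receptor gene Nr4a2, which is also a dopaminergic factor, was not called (0.13 ± 0.12, adjusted p = 0.441). Against control, 10 members were called lower and 4 higher with MPP+, and 5 lower and 14 higher with 3-NPA. The count higher in 3-NPA was 11 or 12 without 1 of the 4 arrays and 13 with scaling by the median.

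A CArG box, the site of serum response factor, was found on either strand in 6 of 23 promoters of this list (26.1%), beside 1.64% of all promoters. The promoters of Egr1 (chr18:26736828-26737127 of GRCr8, plus strand) and Egr2 (chr20:21054392-21054691, minus strand) are shown because both genes have matches, 2 and 1, given in capitals.
Egr1: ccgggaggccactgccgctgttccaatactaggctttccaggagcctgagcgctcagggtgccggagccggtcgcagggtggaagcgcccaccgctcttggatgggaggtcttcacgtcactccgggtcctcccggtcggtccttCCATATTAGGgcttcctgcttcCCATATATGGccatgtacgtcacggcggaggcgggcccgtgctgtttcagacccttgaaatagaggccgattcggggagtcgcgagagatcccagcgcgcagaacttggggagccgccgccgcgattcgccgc
Egr2: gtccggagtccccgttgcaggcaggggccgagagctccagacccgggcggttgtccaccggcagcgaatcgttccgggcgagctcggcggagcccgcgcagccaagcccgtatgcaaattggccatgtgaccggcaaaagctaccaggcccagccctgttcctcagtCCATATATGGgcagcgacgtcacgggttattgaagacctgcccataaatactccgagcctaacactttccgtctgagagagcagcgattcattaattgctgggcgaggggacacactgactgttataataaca

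Interferon-responsive genes encode antiviral effectors and are switched on through STAT and IRF factors. Of 19 tested, 18 had a negative difference, 15 were called higher in 3-NPA and none higher in MPP+, and the median was -0.71. Against control the median was -0.16 with MPP+ and 0.67 with 3-NPA, where 13 members were called higher and none lower. Ifit3, an inhibitor of viral replication, read -3.81 and -4.33 in control, -3.83 and -3.68 with MPP+ and -1.20 and -1.08 with 3-NPA. MPP+ arrays lay at or near control and 3-NPA arrays above all others, a difference of -2.61 ± 0.22, 6.10-fold.

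Isg15, a ubiquitin-like modifier gene, read 2.74 and 2.67 in control, 1.91 and 1.94 with MPP+ and 3.41 and 3.38 with 3-NPA, a difference of -1.47 ± 0.09, with MPP+ below and 3-NPA above control. Irf7, the transcription factor that amplifies the response, differed by -0.89 ± 0.08 in the same order. Oasl, of the oligoadenylate synthetase family, differed by -1.77 ± 0.14, or -1.11 with normexp. The interferon-induced chemokine gene Cxcl10 differed by -1.67 ± 0.13, with 1.24 and 1.24 against 3.00 and 2.82. The count of the list was 9 to 12 without 1 of the 4 arrays and 11 with scaling by the median.

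The interferon-stimulated response element, taken as GAAA, any 2 bases and GAAA on either strand, was found in 9 of 14 promoters of this list (64.3%), beside 3.92% of all promoters. The promoter of Oas1a, a member called higher in 3-NPA, is shown with its 2 overlapping matches in capitals (chr12:41330216-41330515 of GRCr8, plus strand).
Oas1a: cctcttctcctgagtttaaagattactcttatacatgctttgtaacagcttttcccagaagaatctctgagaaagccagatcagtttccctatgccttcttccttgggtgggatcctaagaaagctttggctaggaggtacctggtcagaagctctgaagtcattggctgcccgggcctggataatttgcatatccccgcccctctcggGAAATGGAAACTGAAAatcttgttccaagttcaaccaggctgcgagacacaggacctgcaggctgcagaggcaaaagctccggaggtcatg

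Of 9 tested antigen presentation genes, 3 were called in each direction, which became 1 higher in MPP+ and 2 higher in 3-NPA with 1 of the 4 arrays left out. Cd74, the invariant chain of MHC class II, read -6.58 and -6.46 with MPP+, -2.93 and -2.87 with 3-NPA and -6.03 and -6.25 in control, a difference of -3.62 ± 0.12 that was -1.61 with normexp. It was well above background on 1 of the 2 MPP+ arrays. Its regulator Ciita was below background on both MPP+ arrays and at least 5.08-fold higher in 3-NPA. B2m, the class I light chain, was higher in 3-NPA by -0.36. The immunoproteasome genes went the other way, with Psmb8 at 2.49 and 2.42 with MPP+ and 0.997 and 1.097 with 3-NPA (1.41 ± 0.14), Psmb10 at 0.75 ± 0.15 and Psmb9 at 0.33. For Psmb8 the MPP+ arrays lay beside control at 2.50 and 2.34. The call of Psmb10 was lost whichever of the 4 arrays was left out.

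NRF2 is the transcription factor that answers oxidative and electrophilic stress. Of 22 tested targets, 8 were called higher in 3-NPA and 1, Blvrb (0.56), higher in MPP+, and the median was -0.22, which was 0.04 with scaling by the median. Nqo1, a quinone reductase gene, read -3.99 and -4.19 in control, -2.64 and -2.54 with MPP+ and -1.36 and -1.56 with 3-NPA. Both toxins had it above control and 3-NPA further, a difference of -1.13 ± 0.14. Srxn1, sulfiredoxin, read 2.48 and 2.46 in control, 3.11 and 3.14 with MPP+ and 4.12 and 4.10 with 3-NPA, a difference of -0.99 ± 0.11. Gclc, the catalytic subunit of the first enzyme of glutathione synthesis, was above control with 3-NPA and below it with MPP+, a difference of -0.90 ± 0.10. Hmox1, heme oxygenase, differed by -1.04 ± 0.22, a call lost whichever of the 4 arrays was left out (adjusted p up to 0.0909). From 5 to 6 targets were called higher in 3-NPA without 1 of the arrays. Gsta2 was at least 4.06-fold higher in 3-NPA and below background with MPP+, with the doubt on this family given above.

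Hypoxia-responsive genes answer HIF factors, which prolyl hydroxylases of the EGLN family keep low when oxygen is present. Succinate is known to inhibit such dioxygenases. Of 25 tested, 9 were called higher in 3-NPA and 4 higher in MPP+ (Pdk1, Hif1a, Hk2 and P4ha1), and the median was -0.24, which was 0.01 with scaling by the median. Egln3 read 1.66 and 1.80 in control, 1.62 and 1.61 with MPP+ and 2.39 and 2.35 with 3-NPA, a difference of -0.76 ± 0.09. Epas1, which encodes HIF-2α, differed by -1.22 ± 0.16. Mxi1, a MYC antagonist gene, differed by -1.10 ± 0.14, while its other probes gave -0.50 and -0.46, the last not called. Slc2a1, the glucose transporter GLUT1, differed by -0.54 ± 0.09, a call lost without 3 of the 4 arrays in turn. From 5 to 6 members were called higher in 3-NPA without 1 of the arrays, and 0 or 1 higher in MPP+. Vegfa was above control with both toxins, by 1.11 with MPP+ and 1.43 with 3-NPA, and was not called between them (-0.32 ± 0.11, adjusted p = 0.0786), although 1 of its 4 probes was, and it was called with quantile normalization (-0.38).

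Other members were lower with MPP+ than in control. Ankrd37, a HIF target gene, read -0.35 and -0.37 in control, -1.37 and -1.38 with MPP+ and -0.74 and -0.64 with 3-NPA, a difference of -0.68 ± 0.09. In the opposite direction, Pdk1, the kinase that shuts off pyruvate dehydrogenase, was higher in MPP+ by 0.89 ± 0.17 and Hif1a by 0.68 ± 0.19, with 3-NPA arrays below control in both. The call of Hif1a was lost whichever of the 4 arrays was left out and that of Pdk1 without 3 of them in turn. Of 26 tested dioxygenases that use 2-oxoglutarate and release succinate, 3 were called higher in MPP+, with Fto at 0.69 ± 0.15, and 5 higher in 3-NPA, with the histone demethylase genes Kdm3a at -0.67 ± 0.11 and Phf8 at -0.75 ± 0.14. Without 1 of the 4 arrays none was called higher in MPP+ and 2 or 3 higher in 3-NPA. Phf8 was lost without 3 of them in turn, and its second probe gave -0.18 and was not called.

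Glycolysis had called members on both sides, 4 higher in MPP+ and 4 higher in 3-NPA of 18 tested. Beside Ldhb, the aldolase gene Aldoc was higher in 3-NPA, at 1.61 and 1.54 with MPP+, 2.68 and 2.86 with 3-NPA and 3.51 and 3.48 in control. It was below control with both toxins, and lowest with MPP+, a difference of -1.19 ± 0.13. Gpi (-0.41) and Pfkm (-0.34) were the others. Pkm, pyruvate kinase, at 0.68 ± 0.13 and Pgk1 at 0.51 ± 0.10 were higher in MPP+, and both calls were lost whichever of the 4 arrays was left out. No glycolysis gene was then called higher in MPP+, and 2 higher in 3-NPA.

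The 25 cholesterol synthesis genes had a median of -0.76 against control with MPP+ and -0.94 with 3-NPA, and 20 were called lower in each (the contrasts share the control arrays). Between the toxins the median was -0.01, with 6 called higher in MPP+ and 1 higher in 3-NPA. Insig1, the sterol sensor gene, read 1.61 and 1.44 in control, -0.24 and -0.27 with MPP+ and -0.85 and -0.73 with 3-NPA, a difference of 0.54 ± 0.10. Fdps, farnesyl diphosphate synthase, read 5.15 and 5.24 in control, 3.79 and 3.64 with MPP+ and 2.91 and 2.94 with 3-NPA, a difference of 0.79 ± 0.13. Hmgcs1, the first committed step, was not called (0.25 ± 0.09, adjusted p = 0.0736). From 1 to 3 of these genes were called higher in MPP+ without 1 of the 4 arrays. Insig1 lost its call without 3 of them in turn and Fdps without 1.

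The fatty acid synthesis genes had medians of -0.84 and -0.94 against control with MPP+ and 3-NPA, and between the toxins they had 1 call in each direction of 15 tested, Fads2, a desaturase gene, at 0.87 ± 0.13 and Acly at -0.27 ± 0.08. The call of Acly was lost whichever of the 4 arrays was left out and in 8 other settings. Of 20 fatty acid oxidation genes, whose medians against control were -0.10 and -0.21, 5 were called higher in MPP+ and 3 higher in 3-NPA. Cpt1a, the gate of fatty acid entry into mitochondria, read -2.60 and -2.38 with MPP+ and -1.54 and -1.38 with 3-NPA, a difference of -1.03 ± 0.12, and Hadh (-1.01 ± 0.11) and Acadm (-0.78 ± 0.10) were called with it. Etfa, which passes electrons from this pathway to the respiratory chain, went the other way at 1.04 ± 0.11. Leaving out 1 of the 4 arrays left 2 higher in MPP+ and 3 higher in 3-NPA.

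Transporters that could carry the toxins were mostly weak on these arrays, and 4 of 14 listed, among them Slc6a3, were not tested. Of the 10 tested, 5 were called higher in 3-NPA and none higher in MPP+. Slc22a3, an organic cation transporter gene, was below background on both MPP+ arrays and at least 2.06-fold higher in 3-NPA. Abcb1b, a multidrug efflux pump gene, was above control with both toxins and higher in 3-NPA, by -0.89 ± 0.12. Also called were Slc18a1 (-1.08, or -0.54 with normexp) and Slc6a2 (-0.63). The calls of Slc22a3 and Slc18a1 were lost without 2 and 3 of the 4 arrays in turn, which left 3 members called.

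Of 14 tested dopaminergic genes, 4 were called higher in 3-NPA and none higher in MPP+, and the median was -0.18, which was 0.08 with scaling by the median. Th, the rate-limiting enzyme of dopamine synthesis, read -1.93 and -2.02 with MPP+, -1.77 and -1.79 with 3-NPA and -1.84 and -1.93 in control, a difference of -0.19 ± 0.10 that was not called (adjusted p = 0.174). Aldh1a1, an aldehyde dehydrogenase of a subset of dopaminergic neurons, read -4.08 and -3.60 in control, -6.04 and -6.69 with MPP+ and -3.70 and -3.87 with 3-NPA, so the MPP+ arrays alone were low, with a difference of -2.58 ± 0.30. Ddc, the decarboxylase that forms dopamine, read -5.28 and -5.38 with MPP+ and -3.23 and -2.99 with 3-NPA against -4.80 and -5.44 in control, a difference of -2.22 ± 0.33. With normexp these differences were -1.07 and -1.17. The transcription factor genes Pitx3 (-0.85 ± 0.18) and Foxa1 (-0.68 ± 0.14) gave -0.45 and -0.32 with normexp, and their calls were lost without 3 and 2 of the 4 arrays in turn.

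Of 10 tested genes of inherited Parkinson's disease, 4 were called higher in 3-NPA (Uchl1, Dnajc6, Pink1 and Pla2g6) and 1 higher in MPP+. Uchl1, a neuronal ubiquitin hydrolase gene, read -0.24 and -0.25 in control, 0.30 and 0.32 with MPP+ and 2.22 and 2.25 with 3-NPA, a difference of -1.93 ± 0.09, 3.80-fold. Dnajc6, auxilin, was below background on both MPP+ arrays and at least 4.20-fold higher in 3-NPA. Of 5 tested neural progenitor genes, 3 were called higher in 3-NPA, among them Notch1 (-0.79 ± 0.08) and Nes (-0.61 ± 0.09). Without 1 of the 4 arrays, 2 Parkinson's disease genes and 2 progenitor genes were called higher in 3-NPA. Of the Parkinson's disease genes, Pink1 and Pla2g6 were the ones lost.

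Matrix genes leaned to 3-NPA, with 12 called higher there and 3 higher in MPP+ of 23 tested, and a median of -0.47. Of the 23, 18 were above background on all 4 arrays, and the count was not taken over these alone. Col6a1 and Mmp9 passed the filter only through 3-NPA, where they are high. Col1a1, a chain of collagen I, read -0.54 and -0.68 in control, -1.60 and -1.75 with MPP+ and 0.43 and 0.42 with 3-NPA, below control with MPP+ and above it with 3-NPA, a difference of -2.10 ± 0.10. Mmp9 was at least 3.74-fold higher in 3-NPA and below background with MPP+. Ccn2, a target of TGF-β, and the ligand gene Tgfb2 were higher in 3-NPA by -0.78 ± 0.14 and -1.27 ± 0.17, and 1 of the 3 probes of Tgfb2 was not called, at 0.0028. Ccn2 lost its call without 2 of the 4 arrays in turn. The BMP target gene Id1, a differentiation inhibitor, was higher in MPP+ by 0.72 ± 0.09. It was below control with both toxins. From 8 to 9 matrix genes were called higher in 3-NPA without 1 of the 4 arrays.

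Autophagy and lysosome genes had 8 calls higher in 3-NPA and 3 higher in MPP+ of 23 tested. Gpnmb, a lysosomal glycoprotein gene of the TFEB and MITF programme, read -1.15 and -1.16 in control, 0.99 and 0.90 with MPP+ and 2.69 and 2.61 with 3-NPA. Both toxins had it above control, 3-NPA by 3.81 and MPP+ by 2.10, a difference of -1.71 ± 0.10. Gabarapl1, an ATG8 protein gene, read 2.92 and 3.00 with MPP+, beside control at 2.90 and 3.07, and 4.33 and 4.28 with 3-NPA, a difference of -1.35 ± 0.10. A second probe of Gabarapl1 gave -0.70 and was not called. Npc1, the lysosomal cholesterol exporter, differed by -0.84 ± 0.10. The count was 4 to 7 without 1 of the 4 arrays and 4 with scaling by the median, where the median of -0.14 became 0.11.

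Metal genes leaned the same way, with 7 of 14 called higher in 3-NPA and 1 higher in MPP+, and a median of -0.40. The metallothionein genes Mt3 and Mt1, whose products bind zinc and copper, were above control with both toxins. Mt3 read -4.77 and -4.78 in control, -3.34 and -3.30 with MPP+ and -0.95 and -0.91 with 3-NPA, a difference of -2.39 ± 0.11. Mt1 read 4.51 and 4.55, 5.33 and 5.37, and 6.53 and 6.46 in the same order, a difference of -1.15 ± 0.08. The zinc exporter gene Slc30a1 (-1.23 ± 0.08) and the iron exporter gene Slc40a1 (-1.64 ± 0.10) had MPP+ arrays a little below control and 3-NPA arrays above it. The count was 4 or 5 without 1 of the 4 arrays.

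Growth arrest and death genes were mixed. Of 19 p53 targets, 4 were called higher in 3-NPA (Cdkn1a, Mdm2, Tp53inp1 and Bbc3) and 2 higher in MPP+ (Ccng1 and Fas). Cdkn1a, which encodes the cyclin-dependent kinase inhibitor p21, read 0.49 and 0.29 in control, 1.73 and 1.84 with MPP+ and 3.21 and 3.35 with 3-NPA, a difference of -1.50 ± 0.13. Its second probe gave -0.39 and was not called, so the size is uncertain. Ccng1, cyclin G1, read 1.67 and 1.58 with MPP+ and 0.58 and 0.92 with 3-NPA, a difference of 0.88 ± 0.13. Fas, the death receptor gene, was higher in MPP+ by 1.21 ± 0.21, at 0.50 by a second probe that was not called. Of 15 BCL2 family genes, 4 were called higher in 3-NPA and 1 higher in MPP+. Differences were positive in 8 and negative in 7, with a median of 0.0004. The pro-death members Bmf (-1.16 ± 0.13) and Bik (-1.09 ± 0.12) were among those higher in 3-NPA. Hrk, of the same kind, was above control with both toxins, by 3.09 with MPP+ and 3.70 with 3-NPA, and differed by -0.60 ± 0.10, or by -0.49 on a second probe that was not called. With 1 of the 4 arrays left out, 2 p53 targets and 2 or 3 BCL2 family genes were called higher in 3-NPA. Fas and Hrk each lost the call without 1 of the arrays.

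Of 28 mitosis genes, 5 were called higher in MPP+ and none higher in 3-NPA, with a median of -0.03. Ccnb1, cyclin B1, read 3.52 and 3.61 in control, 3.15 and 3.14 with MPP+ and 2.66 and 2.57 with 3-NPA, a difference of 0.53 ± 0.10, a call lost whichever of the 4 arrays was left out, when 0 to 2 mitosis genes were called. Of 34 replication genes, 6 were called higher in MPP+ and 3 higher in 3-NPA, which became 2 to 3 and 0 with 1 of the 4 arrays left out. Tk1, thymidine kinase, read 3.02 and 2.92 with MPP+, beside control at 3.08 and 2.97, and 1.99 and 1.92 with 3-NPA, a difference of 1.01 ± 0.09. Of 15 G1 cyclins and CDK inhibitors, 4 were called higher in MPP+ and 3 higher in 3-NPA, or 2 to 3 and 2 with 1 array left out. Cdk4 was higher in MPP+ by 1.01 ± 0.13 and the CDK inhibitor gene Cdkn2c by 0.82 ± 0.11. Ccnd2 was below background on both MPP+ arrays and at least 4.04-fold higher in 3-NPA. In base damage repair, 4 of 14 were called higher in MPP+ and 2 higher in 3-NPA, which became 2 to 3 and 0 with 1 array left out. Nthl1, a DNA glycosylase, was higher in MPP+ by 0.94 ± 0.10. Mgmt, which removes alkyl groups from guanine, was above control with both toxins, by 3.21 and 3.73, and was not called between them (-0.52 ± 0.29, adjusted p = 0.218).

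NF-κB and inflammatory genes had 4 calls on each side of 23 tested, among them Ccl20, described above, on the MPP+ side and Cxcl10, Ccl7 and Icam1 on the other. Without 1 of the 4 arrays, 1 was called higher in MPP+ and 2 to 4 higher in 3-NPA. Ccl7, a monocyte chemokine gene, read -1.58 and -1.34 in control, -3.22 and -3.46 with MPP+ and -2.06 and -2.07 with 3-NPA, a difference of -1.28 ± 0.14. Icam1, an adhesion molecule gene, differed by -0.59 ± 0.09, a call lost without 2 of the 4 arrays in turn. Nos2 was above control with both toxins and not called between them (-0.44 ± 0.20, adjusted p = 0.150).

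Markers of 5 cell types that an N27 culture should not hold, and of neurons in general, were read for the same contrast, and each of the 6 lists had calls on the 3-NPA side alone. Called higher in 3-NPA were 2 of 5 tested astrocyte markers, 3 of 7 of microglia and 2 of 7 of oligodendrocytes. So were 3 of 5 of endothelium, 5 of 6 of fibroblasts and mural cells and 4 of 5 of neurons in general. The share was 18.1% over all genes and 23.1% over those with a mean level below -4. Mbp, an oligodendrocyte marker that was called, passed the filter only through 3-NPA, where it is high. Its difference ran from -2.67 to -1.55 with 1 of the 4 arrays left out. With 1 of the 4 arrays left out, the counts were 2 for neurons, 1 to 2 for microglia and oligodendrocytes and 4 for fibroblasts and mural cells. The linear levels of a list's tested markers were also summed. The brightest probes count most in such a sum, which is no measure of the number of cells. The summed linear level of the microglial markers was 0.466 to 0.587 in control, 0.391 to 0.440 with MPP+ and 0.802 to 0.820 with 3-NPA. That of the fibroblast and mural markers was 1.62 to 1.80, 1.55 to 1.60 and 3.31 to 3.48, and that of the neuronal markers 5.97 to 6.32, 6.85 to 7.41 and 14.9 to 15.1. The astrocyte sums were 17.8 to 18.5 in control, 6.33 to 6.39 with MPP+ and 13.7 to 14.7 with 3-NPA, and Aldoc and Ndrg2 were the called members. The endothelial sums were 0.637 to 0.720, 0.587 to 0.588 and 0.917 to 0.947, and the oligodendrocyte sums 0.415 to 0.422, 0.377 to 0.406 and 0.416 to 0.458.

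Detection of the markers was mixed. Well above background on both 3-NPA arrays were 5 of 9 astrocyte markers on the array, 7 of 11 of microglia (Aif1, Itgam and Csf1r among them), 7 of 10 of oligodendrocytes (with Mog, Mag and Sox10), 5 of 8 of endothelium (with Pecam1, Cdh5 and Vwf) and 5 of 10 of fibroblasts and mural cells. On both MPP+ arrays the numbers were 5, 7, 6, 5 and 6, and on both control arrays 4, 4, 1, 2 and 4. Detection of all probes differed in the same direction. On the control arrays 51.26% and 48.57% of probes were well above background. The shares were 64.85% and 62.52% with MPP+ and 63.04% and 65.06% with 3-NPA. Slc1a2 and S100b of astrocytes, Ptprc, P2ry12, Trem2 and C1qa of microglia, Olig2 and Cldn11 of oligodendrocytes, Cldn5, Tek and Esam of endothelium and Dcn, Lum, Rgs5 and Thy1 of fibroblasts and mural cells were not well above background on any of the 8 arrays. Among the markers that were called, Cd68, a lysosomal protein gene, differed by -1.94 ± 0.18, Kdr, the VEGF receptor gene, by -2.73 ± 0.31 and Pdgfra by -1.89 ± 0.18. Kdr and Pdgfra were weak, with differences of -1.32 and -0.81 under normexp. Mapt, the gene of the microtubule protein tau, read 1.20 and 1.06 with MPP+, 2.63 and 2.74 with 3-NPA and 1.32 and 1.12 in control, a difference of -1.56 ± 0.11. Tubb3, neuronal tubulin, read 1.08 and 1.01 with MPP+ and 2.17 and 2.03 with 3-NPA against 0.28 and 0.37 in control, a difference of -1.05 ± 0.16. In RNA from whole cultures, a change in the number of cells of a kind and a change in RNA per cell cannot be told apart. The part of the marker shift in the interferon, matrix and class II results was not tested.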

How the data were processed

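Single-colour Agilent arrays of N27 cells were used, 2 each of control, Mn, MPP+ and 3-NPA cells, grouped by the treatment label. Per the file headers, spot intensity was extracted by the authors with Agilent Feature Extraction 11.5.1.1, and the processed signal is background-subtracted and detrended, with no normalization between arrays and probe positions on rn4. The deposited value table holds log2 values made in a way not given in the sources used here. Correlation with the scanner's log2 signal was 0.9966 or more for every column. Column medians were -4.34 and -4.38 for MPP+, -4.08 and -4.16 for 3-NPA, -3.99 and -4.11 for control and -4.30 and -4.31 for Mn. Scale and direction matched the scanner values, and no centring of genes was seen. It served only as an alternative.

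Each array held 58717 spots that were not controls, for 30367 probes. Outlier spots were left out, and 30328 probes were used. Log2 spot signals were averaged per probe and the array's 75th percentile set to 0. A probe counted as above background where more than 0.5 of its spots did. Probes above background on both MPP+ or both 3-NPA arrays were kept, and the brightest stood for its gene. Of 2318 genes with several kept probes, 14 had probes called in opposite directions. Gene names came from RefSeq (GRCr8) by accession for 18735 probes and by symbol for 2986, and the other 8607 kept the name in the file. The tests used limma 3.58.1 in R 4.3.3, with all 8 arrays as 4 group means (4 residual and 2.06 prior degrees of freedom) and Benjamini-Hochberg adjustment over all genes at 0.05. The number of arrays limits the precision. The fit was tested on simulated data. A bound sets the bright group's mean against, per array, the higher of the dim probe's signal and the lowest signal among probes above background. It holds for this background subtraction only.

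Named genes were the 12 with the largest difference in each direction among symbols called, not overlapping and above background on all 4 arrays, the 5 with the largest bound each way, up to 4 per list by smallest p, and a fixed set. Members, lists and rules were chosen with earlier results of these data known. Alternatives were normexp background correction (offset 50), quantile normalization, scaling by the median, the deposited table, other probe filters and probe summaries, other variance models, array weights, the 4 arrays alone, a replicate block, a 2-fold threshold and each array left out. Results for a few genes that meet the naming rule are not reported here.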

Additional observations from a re-analysis of the deposited data

How the results depend on the processing

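Counts of genes called between MPP+ and 3-NPA stayed within 1.5 times of 5244 in total, 2184 higher in MPP+ and 3060 higher in 3-NPA, except as follows. Scaling by the median gave 4548 higher in MPP+ and 1748 higher in 3-NPA. Using no filter on dim probes gave 1336 higher in MPP+. Array weights gave 7991 calls, 3593 of them higher in MPP+. A 2-fold threshold left 1488, 263 and 1225. Leaving out 1 array at a time gave 2259 to 5770 calls, 692 to 2377 higher in MPP+ and 1567 to 3407 higher in 3-NPA, with the low ends from leaving out an MPP+ or 3-NPA array, when the lone array is assumed to vary like the other groups. The unadjusted p was below 0.05 for 7269 genes. The share of calls higher in MPP+, 41.6%, was 46.2% with quantile normalization, 39.0% with normexp, 34.5% with no filter and 72.2% with scaling by the median. Scaling by the median of probes above background on all 8 arrays, chosen after seeing the data, gave 41.8%. Replicate numbers are shared by the groups. Deviations from the group means correlated at 0.092 between MPP+ and 3-NPA arrays of one number, and at -0.024 to 0.504 over all pairs of groups. The 0.504 was for Mn and 3-NPA, whose arrays of one number lay in the same slide column. Control and MPP+ arrays shared columns too, and gave 0.024. An effect of position was not tested. With a replicate block 5068 genes were called, 2125 of them higher in MPP+. Of 219 named genes 198 were called, and none reversed. Of these, 131 kept their call whichever of the 4 arrays was left out and 67 lost it at least once, 10 of them among the 99 with a difference of at least 2-fold. Calls were lost in another setting for 42. Small differences are limited by 2 arrays per group, and weak probes by signal over background, which compresses their differences under normexp. The causes of these changes were not tested.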
